A study of Mus musculus with 6 samples.

Results

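The clustered protocadherins are cadherin-like cell surface proteins encoded by 3 neighbouring gene clusters, alpha, beta and gamma, on mouse chromosome 18. The members described here are the 57 protein-coding RefSeq genes there whose symbol starts with Pcdha, Pcdhb or Pcdhg followed by a number or by a subtype letter and a number, out of 21887 protein-coding genes. The alpha cluster has 14 of them, the beta cluster 22 and the gamma cluster 21. Open chromatin at these genes was read from ATAC-seq peak lists of immortalised mesenchymal cells from the mouse atrioventricular cushion, the embryonic tissue that gives rise to heart valves and septa. ATAC-seq uses a transposase to cut and tag accessible DNA, and a peak is a stretch where such cuts pile up. High-glucose cells were kept in 25 mM glucose for 48 h (3 libraries), and normal-glucose cells in 5.5 mM glucose for the same time (3 libraries). All libraries came from the same line at passage 6, of the H-2Kb-tsA58 transgenic strain, in which the interferon-inducible H-2Kb promoter drives a temperature-sensitive SV40 large T antigen that keeps cells dividing. The line is therefore a model of dividing cushion cells in culture and not of the tissue itself. A single line was used, and nothing in the labels says that replicates were separate cultures, so the p-values cover the spread between these libraries alone, and that spread may be technical.

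Peak lists of the high-glucose libraries held 22156, 25020 and 22598 peaks for replicates 1, 2 and 3, and those of the normal-glucose libraries 24263, 66 and 40350. Normal-glucose replicate 2, with 66 peaks, had none at the clusters and fell under the minimum of 1000 peaks for entering comparisons, which left 5 libraries. Read counts are not part of the lists, which leaves the depth unknown, and a gene without a peak is not shown to be closed. A longer list, such as that of normal-glucose replicate 3, may reach weaker sites, which was not tested. The cell type label was checked with markers, called open where a peak lay no more than 1 kb from either end of the gene. Of all protein-coding genes 35.7% were open by this measure in all 5 libraries and 48.0% in none, so counts in lists this short only describe them. Of 12 mesenchymal markers 7 were open in all 5 libraries, among them Vim, Fn1 and Cdh2, 4 in some of them and Prrx1 in none. None of 6 endothelial, 6 cardiomyocyte or 6 epithelial markers was open in all 5 libraries, although the endothelial receptor gene Kdr was in 4. Of 10 neuronal markers Tubb3 and Syn1 were open in all 5, Map2 and Snap25 in some, and Rbfox3, Nefl, Stmn2, Elavl3, Elavl4 and Dcx in none.

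In the alpha and gamma clusters each gene has its own variable first exon with its own promoter, which is spliced to constant exons shared by the whole cluster, while a beta gene is a single exon. Neurons are known to choose a small and largely random set of these promoters per cell, with CTCF and cohesin looping a chosen promoter to enhancers that lie beyond the shared end of a cluster. The resulting surface proteins bind like to like and let a neuron tell its own branches from those of others. The last members of the alpha and gamma clusters, called C-type, are more alike across clusters than to their neighbours and are not chosen at random in this way. In the annotation the starts of the 14 alpha genes were spread over 213.4 kb while their upper ends lay within 1240 bp of each other. For the 21 gamma genes the starts covered 157.8 kb and the upper ends 10 bp. A start was therefore taken as the lower coordinate of the gene, and beta genes, 2340 to 5271 bp long, were read in the same direction. A member was called open in a library when a listed peak lay within 1 kb of its start.

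Of the 57 clustered protocadherins, 1 was open at its start in all 5 libraries, Pcdhgc3, and 1 more, Pcdhgc5, was open in a single library. The other 55 had no peak within 1 kb of the start in any library. Among 17492 other protein-coding genes whose strand was known, 35.5% were open at the start in all 5 libraries and 49.8% in none. Both members with a peak are C-type genes of the gamma cluster, and none of the 52 members that are not C-type had one. Of the 5 C-type members, however, 3 had none in any library, and the Pcdhgc5 peak was weak, at the 4.53 percentile of its list. Close similarity between neighbouring members can keep short reads from being placed, and the part of this in the members without a peak was not tested. Reads were 50 bp paired-end, and the sources used here do not give the handling of reads with several possible positions.

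**Figure D1:**
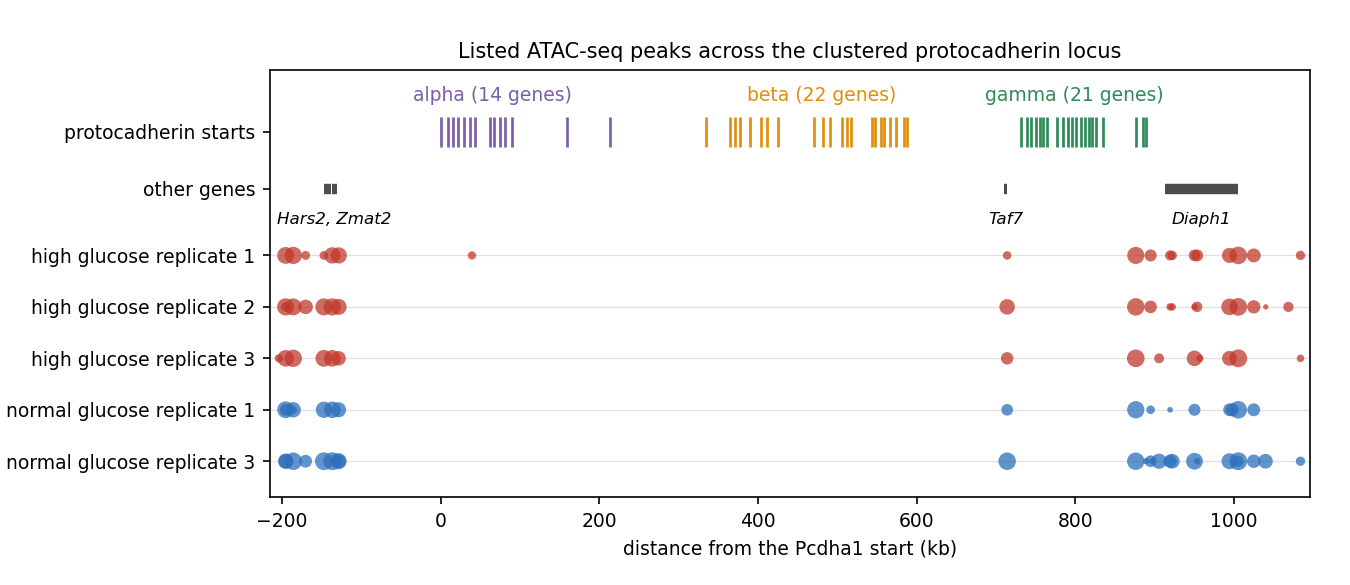
Map of the locus from below Hars2 to beyond Diaph1 (x axis, distance from the Pcdha1 start in kb). The top row marks the start of each protocadherin gene and the second row Hars2, Zmat2, Taf7 and Diaph1. Other genes are not drawn, so a dot away from those shown may still lie in a gene. Each dot in the 5 library rows is a listed peak, larger where it ranks higher in its own list. The alpha and beta clusters hold 1 dot in all, in high-glucose replicate 1, and the dots of the gamma cluster sit at its upper end.

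Overlapping peaks of the 5 libraries, by 1 bp or more, were joined into regions. Over the clusters and 10 kb either side, a span of 931.6 kb at chromosome 18, 36920285 to 37851873 (mm10), there were 8 regions of 49048 in the whole genome. Of the 8, 2 were present in all 5 libraries and 3 in only 1 library each, either high-glucose replicate 1 or normal-glucose replicate 3. Over all regions, 25.1% were present in all 5 libraries and 39.7% in only 1. The 8 regions lay unevenly. The alpha cluster, 258.6 kb long, held 1 region, present in 1 library. The beta cluster, 256.4 kb long, held none, and neither did the 143.6 kb of the gamma cluster from the Pcdhga1 start to 1 kb below Pcdhgc3, where 18 members start. The remaining 36.5 kb of the gamma cluster, 3.91% of the span, held 5 of the 8 regions. The last 2 regions overlapped neighbouring genes, Taf7 at its upper end between the beta and gamma clusters, and Diaph1 just above the gamma cluster. The latter lay inside Diaph1, 5925 bp from its lower end, and which gene it serves was not tested.

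Counting only regions seen in at least 2 libraries, no peak was listed over 842.0 kb, from 36802036 to 37644074. The stretch contains 37 protein-coding genes in full, 36 of which are all the alpha and beta protocadherins, and the last is Slc25a2, which encodes a mitochondrial carrier. Stretches at least as long without such a region numbered 440 in the genome, this one included, so its length was not rare. Its gene content was less common. Among stretches of 100 kb or more, 14 contained at least 37 protein-coding genes, this one included, and in 9 of the 14 most of the genes were olfactory or vomeronasal receptors or trace amine receptors. The genome was also cut into 2908 windows as long as the protocadherin span. The median window held 13 regions and 1159 windows held 8 or fewer, but among the 15 windows with at least 50 gene starts the median was 58 regions, and 3 of the 15 had 8 or fewer. The protocadherin span has 63 gene starts.

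Within the clusters and 10 kb either side, Pcdhgc3 carried the strongest peak in all 3 high-glucose libraries and in normal-glucose replicate 1. In normal-glucose replicate 3 the peak at Taf7 ranked slightly higher, at the 91.9 percentile against 91.6 for Pcdhgc3. Pcdhgc3 encodes the C-type gamma protocadherin that is known to be made outside the nervous system as well as in it. Its region spans chromosome 18, 37806214 to 37806426, and covers the gene start at 37806410. The authors' fold enrichment of the peak over local background was 11.9, 15.4 and 15.2 in high-glucose replicates 1, 2 and 3, against 12.2 and 14.5 in normal-glucose replicates 1 and 3. These values describe each peak within its own list and were not tested between libraries. The ranges of the 2 conditions overlapped. Ranked by the authors' −log10 p, the Pcdhgc3 peak reached percentiles 87.6, 91.8 and 93.7 in the lists of high-glucose replicates 1, 2 and 3, and 89.9 and 91.6 in those of normal-glucose replicates 1 and 3.

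The point of highest signal in the Pcdhgc3 peak, its summit, lay 81, 67 and 68 bp below the start in high-glucose replicates 1, 2 and 3, and 66 and 74 bp below it in normal-glucose replicates 1 and 3. All 5 summits thus fell within 15 bp of each other, just outside the transcribed gene. Peak widths were 137, 152 and 137 bp in high glucose and 132 and 208 bp in normal glucose, in the same order of replicates. Set against other gene starts open in the same library, whose median percentile was between 74.3 and 82.1, the Pcdhgc3 peak ranked above 70.7% to 84.2% of them. Pcdhgc3 was thus no weak or borderline site in any of the 5 lists.

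Pcdhgc4, which is known to be needed for the survival of interneurons, had no peak at its start in any library. Its start at 37815079 lay 4311 bp from the nearest region of any library and 8653 bp from the nearest seen in at least 2 libraries. At Pcdhgc5, a C-type gene known for its late onset in the developing brain, a single peak was listed, in normal-glucose replicate 3, at 37819390 to 37819476. Its upper edge was 70 bp below the gene start and its summit 144 bp below. It stood at the 4.53 percentile of that list, with a fold enrichment of 4.08, and was no longer listed at a −log10 q of at least 5 or with lists of equal length. Pcdhac1 and Pcdhac2, the C-type genes of the alpha cluster, had no peak at or inside the gene in any library. Pcdhac2 is known for its role in the spacing of serotonergic axons. The nearest region in any library lay 120286 bp from the Pcdhac1 start and 173828 bp from the Pcdhac2 start.

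Further regions lay inside the shared part of the gamma genes, downstream of all gamma starts, and were weaker than the peak at Pcdhgc3. A region at 37824975 to 37825148, 5429 bp above the Pcdhgc5 start, was present in 4 of the 5 libraries. Its percentiles were 39.8 and 43.9 for high-glucose replicates 1 and 2, with no peak listed in high-glucose replicate 3, and 16.2 and 36.3 for normal-glucose replicates 1 and 3. A region at 37835615 to 37835787, 16069 bp above the Pcdhgc5 start, was present in high-glucose replicate 3 at the 23.8 percentile and in normal-glucose replicate 3 at the 67.7 percentile. High-glucose replicate 3 thus had the second of these regions and not the first. The weakest, at 37826690 to 37826776, was listed in normal-glucose replicate 3 alone, at the 1.09 percentile.

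**Figure D2:**
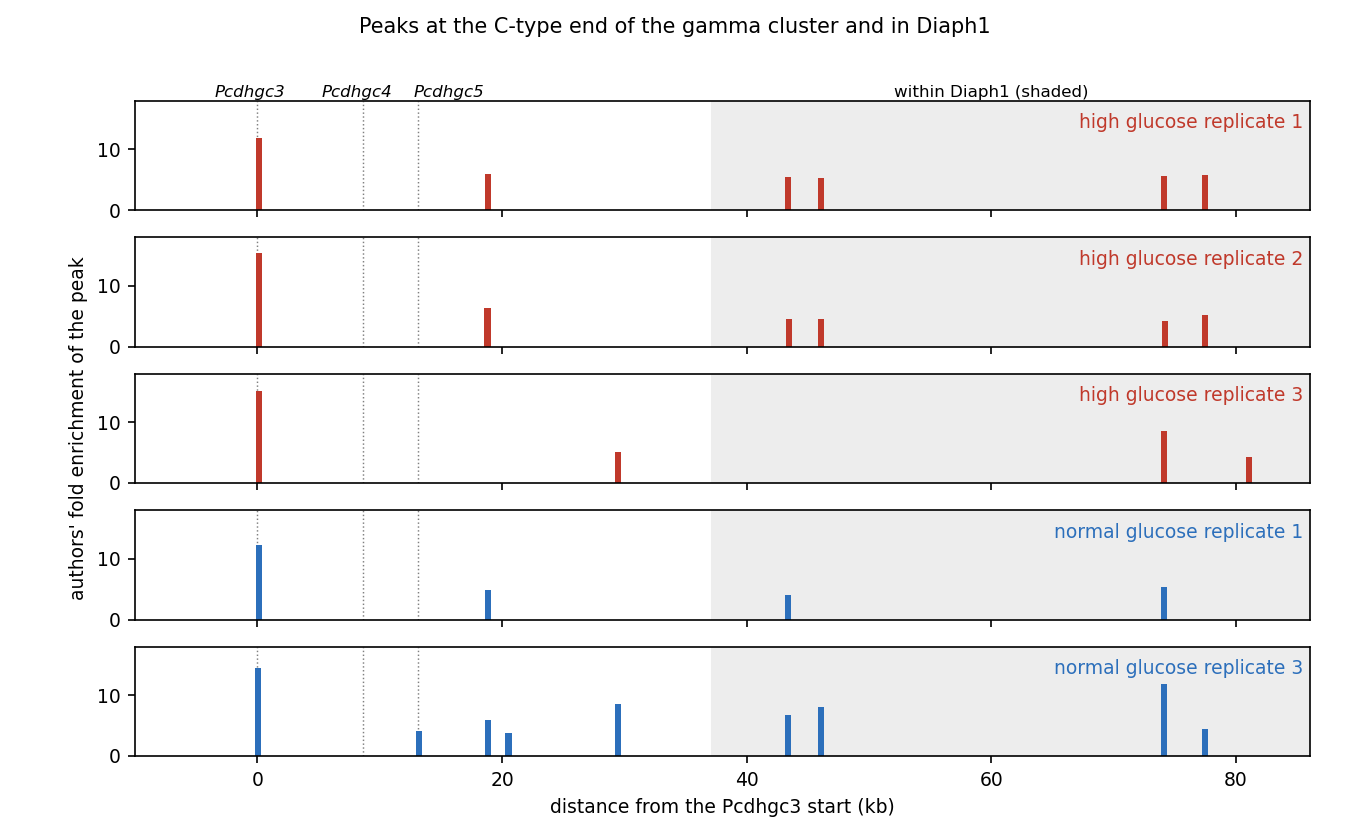
Listed peaks in each library from 10 kb below to 86 kb above the Pcdhgc3 start (x axis, kb), with the authors' fold enrichment of the peak as bar height and a fixed bar width of 0.5 kb, wider than the peaks. Dotted lines mark the C-type gene starts and the shading the part of Diaph1 in view. The bar at Pcdhgc3 is the tallest in all 5 libraries, from 11.9 to 15.4, and peaks further along are lower.

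Because the gamma genes share their upper end, a peak there lies inside every one of them. All 21 gamma genes had a peak inside the gene or within 1 kb of it in all 5 libraries, against 44.6% of all protein-coding genes. These were the same few regions counted 21 times and not 21 open genes, so the start of each gene is the measure that separates them. By the measure of whole genes, 6 alpha genes, Pcdha1 to Pcdha6, contained a peak in high-glucose replicate 1 alone. That was the sole region of the alpha cluster, at 36969753 to 36969850, with a fold enrichment of 4.34 and at the 14.03 percentile of its list. It lay 2128 bp above the Pcdha6 start. The other 8 alpha genes and all 22 beta genes, 30 of the 57 members, contained no peak in any library. Of all protein-coding genes 35.6% had no peak inside the gene or within 1 kb of it in any of the 5. Beta genes are short, 2340 to 5271 bp, which leaves little length for a peak to fall in.

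Distances from each start to the nearest region show how far most members lay from listed open chromatin. With regions of any library the median was 29289 bp for the alpha genes, 215556 bp for the beta genes and 50041 bp for the gamma genes, against 952.5 bp for the other protein-coding genes of known strand. The beta genes were the most remote, between 125722 and 336620 bp. Pcdhb22, the beta gene nearest to Taf7, was the closest of them. With regions seen in at least 2 libraries the alpha median became 181104 bp, since the region inside Pcdha6 was present in only 1. The median over all 57 members was then 150654 bp, and 14.6% of other genes lay farther than that from such a region.

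Neighbouring genes on both sides of the clusters had gene-end peaks in the same libraries. Zmat2, the nearest gene below the alpha cluster, was open at its lower end in all 5 libraries, at the 79.7, 88.4 and 82.6 percentile in high glucose and the 81.6 and 96.4 percentile in normal glucose. Hars and Hars2, which encode the cytosolic and mitochondrial histidyl-tRNA synthetases, shared a region between them in all 5. Taf7, a subunit of the general transcription factor TFIID, sits between the beta and gamma clusters and had a peak over its upper end in all 5 libraries. That peak varied in rank more than the one at Pcdhgc3, from the 15.1 percentile in high-glucose replicate 1 to the 70.6 and 42.3 in high-glucose replicates 2 and 3, and it stood at 36.5 and 91.9 in normal-glucose replicates 1 and 3. At Slc25a2, beside Taf7, no library listed a peak at either end. Of the 3 read-through gene models that start in the alpha cluster and end with the gamma genes, Gm37013, Gm38666 and Gm38667, none had one either. Diaph1, which encodes a formin that builds actin filaments, was open at its upper end in all 5 libraries, at or above the 92.5 percentile. Hdac3, the histone deacetylase gene beyond it, and Rell2 shared a region in 4 libraries, all but high-glucose replicate 3.

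**Figure D3:**
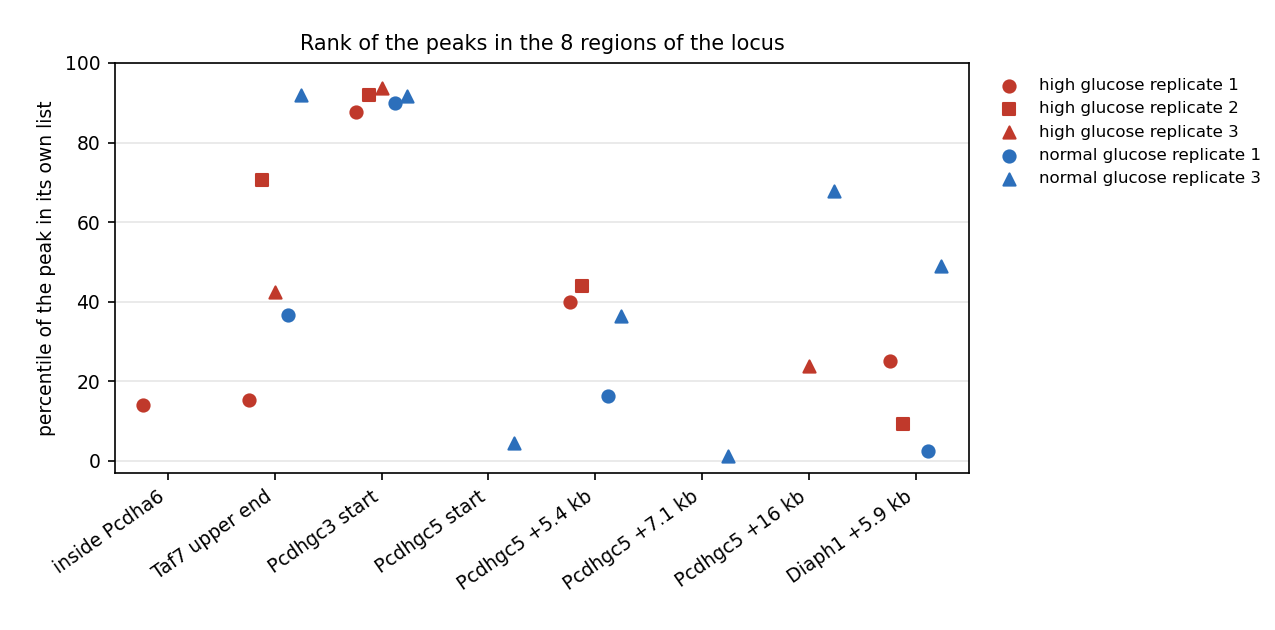
Percentile of each listed peak within the list it came from, by the authors' −log10 p (y axis), for the 8 regions of the span in order along the chromosome (x axis). Points are libraries, red for high glucose and blue for normal glucose, and a missing point means that no peak was listed. The Pcdhgc3 points lie together between 87.6 and 93.7, while those of Taf7 reach from 15.1 to 91.9.

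Above the gamma cluster, regions inside Diaph1 lay in the direction in which the gamma enhancers are known to lie, although no file used here marks those enhancers. The region just inside the limit of 10 kb, at 37849526 to 37849685, began 2347 bp inside it. Its percentiles were 25.0 and 9.18 for high-glucose replicates 1 and 2, with no peak in high-glucose replicate 3, and 2.29 and 49.0 for normal-glucose replicates 1 and 3. The next region, at 37852236 to 37852397, began 363 bp outside the limit and was present in high-glucose replicates 1 and 2 and in normal-glucose replicate 3. Further into Diaph1, a region at 37880259 to 37880445 was present in all 5 libraries. Its percentile was 36.0, 5.46 and 70.6 in high-glucose replicates 1, 2 and 3, against 39.2 and 84.1 in normal-glucose replicates 1 and 3, and the conditions overlapped. It was not the only such region. Another inside Diaph1, at 37924399 to 37924552, was also present in all 5, between the 43.8 and 81.9 percentile. A region at 37883604 to 37883750 was present in high-glucose replicates 1 and 2 and in normal-glucose replicate 3.

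No difference between high and normal glucose was detected at the clusters. The high-glucose lists held 5, 4 and 3 peaks in the span for replicates 1, 2 and 3, and the normal-glucose lists 4 and 7 for replicates 1 and 3. On average a high-glucose list had 4.0 ± 1.0 peaks there (SD, n = 3) and a normal-glucose list 5.5 ± 2.1 (SD, n = 2). The difference of -1.5 did not pass an exact permutation test (two-sided p = 0.6), whose smallest possible p is 0.2. The longest list, normal-glucose replicate 3, had the most peaks there, and without it the difference was 0. Relative to list length, the span held 2.26, 1.60 and 1.33 of every 10000 nuclear peaks in high-glucose replicates 1, 2 and 3. The normal-glucose values were 1.65 and 1.74 for replicates 1 and 3. These shares rest on few peaks, and their 95% exact binomial intervals, which cover counting error only, reached from 0.274 to 3.88 in high-glucose replicate 3 and from 0.698 to 3.57 in normal-glucose replicate 3. Mean shares were 1.73 ± 0.478 for the high-glucose lists (SD, n = 3) and 1.69 ± 0.0608 for the normal-glucose lists (SD, n = 2). They differed by 0.0361 (exact permutation test, two-sided p = 1). That difference turned to -0.229 without high-glucose replicate 1 and to -0.00694 without normal-glucose replicate 1.

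Members open at their start numbered 1 in each high-glucose library, and 1 and 2 in normal-glucose replicates 1 and 3 (difference of means -0.5, exact permutation test, two-sided p = 0.8). The extra member was Pcdhgc5. No region of the span was specific to high glucose, that is listed in its 3 libraries and absent from normal glucose, as 0.167% of all regions were. None was specific to normal glucose by the converse rule over its 2 libraries, as 3.73% were. By the same rule no member had a start specific to either condition, against 0.0515% of other genes for high glucose and 0.606% for normal glucose. With 8 regions and 57 members, such low background shares leave little room to see a departure from them. Without normal-glucose replicate 1, leaving replicate 3 to stand for normal glucose, 2 regions and 1 member, Pcdhgc5, met the normal-glucose criterion.

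Other cadherin genes were open more often in these cells than the clustered protocadherins, by count. To compare lists, a gene was called open when either of its ends had a peak within 1 kb, which left the members' count at 1 of 57 in all 5 libraries, against 35.7% of all protein-coding genes. Of 12 non-clustered protocadherins 3 were open in all 5, Pcdh7, Pcdh17 and Pcdh19, and Pcdh18 in 3 libraries. Pcdh17 was the strongest of these, at the 88.9, 87.6 and 88.4 percentile in high glucose and the 82.5 and 95.9 percentile in normal glucose. At the other 8, including Pcdh9 and Pcdh10, neither end had a peak in any of the lists. Of 19 classical cadherin genes 3 were open in all 5, Cdh2, Cdh11 and Cdh24, and Cdh2, which encodes N-cadherin of mesenchymal cells, stood at or above the 40.1 percentile. Tandem families chosen for comparison after these values were seen were also low, with 2 of 39 Hox cluster genes and 0 of 1110 olfactory receptor genes open in all 5. These are counts side by side, and no difference between lists was tested.

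**Figure D4:**
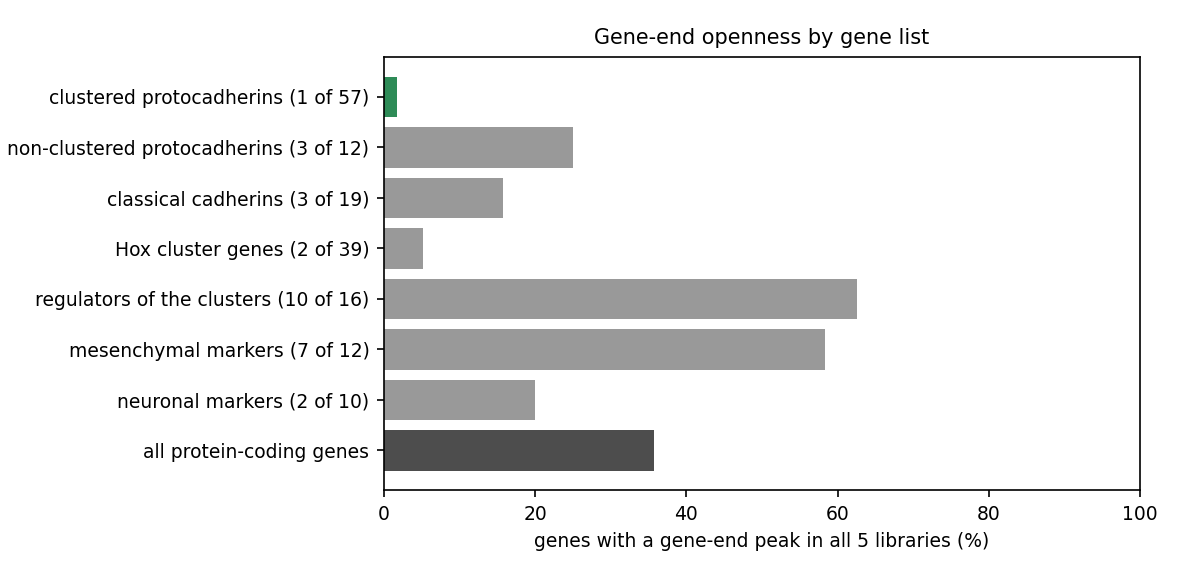
Share of genes in each list with a peak within 1 kb of either gene end in all 5 libraries (x axis, percent), with the count in brackets. The bar for the clustered protocadherins stands for 1 of 57 genes, and the bar for all protein-coding genes for 35.7%.

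Genes for factors that are known to regulate these clusters were mostly open. Of 16 such genes 10, or 62.5%, were open in all 5 libraries, against 35.7% of all protein-coding genes, with no test of the list. Ctcf, which encodes the insulator protein that binds most variable protocadherin promoters, had percentiles of 87.5, 77.7 and 88.3 in high glucose and 74.5 and 72.3 in normal glucose. The cohesin subunit gene Smc3 stood at or above the 96.4 percentile in every list, and Smchd1, a repressor known to keep the clusters silent, at or above the 95.5 percentile. Setdb1, a histone methyltransferase known to shield the locus from excess CTCF binding, and Rest, a repressor of neuronal genes, were open in all 5 as well, although Rest reached no more than the 54.8 percentile. Dnmt3b, the DNA methyltransferase known to set the methylation of these promoters in the embryo, had a peak in high-glucose replicate 2 and normal-glucose replicate 3 only. For Wapl, Nipbl, Rad21 and Stag1 neither end had a listed peak. Of 7 genes for intracellular partners of protocadherins, 5 were open in all 5 libraries, beside the same 35.7% of all genes. These were Nckap1, Cyfip1, Abi1 and Wasf1 of the WAVE actin-regulating complex and the kinase gene Ptk2. Ptk2b had a peak in high-glucose replicate 2 and normal-glucose replicate 1 only, and Ret had none. An open gene end does not measure the amount of RNA or protein.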

How the data were processed

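The data are ATAC-seq peak lists, 3 per glucose level, each library from 54000 cells. Per the submitters' processing notes, which give no roles or settings, tools included cutadapt 1.0, Bowtie 1.0.0, SAMtools 0.1.19, Picard 1.90 and MACS2 2.1.0, on mm10. Transposase shift and duplicate handling are not given in the sources used here. Each library had its own deposited list. For each peak the authors deposited its score, its fold enrichment and, on a −log10 scale, its p-value and q-value, made by their caller within that library. Here these served only to rank or filter peaks within a list. The lowest −log10 q was 1.30.

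Peaks outside the nuclear chromosomes were dropped. Regions and genes were matched by RefSeq gene positions (GRCm38.p6, the coordinates of mm10). Strand was known for 17492 genes other than the members, none of them on chromosome 18. A percentile is the share of a list's nuclear peaks with a −log10 p at or below that of the peak. Group means were compared by exact permutation over the 10 splits of 5 libraries. The members and lists were chosen with earlier results of these data known. Named genes were members with a start peak in any library, the C-type members, the nearest non-members and genes of the lists. The planned count of promoter sequence features was not run. Alternatives were a stricter −log10 q (5 or more), equal list lengths (22149 peaks), all 6 libraries, each library left out, windows of 500 and 2500 bp, either gene end, an overlap of 50%, flanks of 0 and 50 kb and same-numbered pairs. Whole genes were added after seeing the data. Software was Python 3.11.15 with SciPy 1.17.1, pandas 2.3.3, numpy 2.4.6 and, for figures, matplotlib 3.10.9.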

Additional observations from a re-analysis of the deposited data

How the results depend on the processing

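The start of Pcdhgc3 had a peak in all entering libraries under every setting tried with 5 libraries or fewer. With all 6 libraries the count of members open in all was 0, since normal-glucose replicate 2 lists 66 peaks, and with peaks anywhere in the gene it was 21, by nesting of the gamma genes. The difference in peaks per library (-1.5) turned to 0.167 with lists of equal length and to 0.333 with all 6 libraries, and ranged from -3 to 0 when each library was left out. The difference in share per 10000 (0.0361) ranged from -0.229 to 0.236 when each library was left out. It was 0.6001 with all 6 libraries and 0.605 with a flank of 50 kb (exact permutation p = 0.6 and 0.4), and between 0.0317 and 0.101 under the other settings. The difference in members open at the start (-0.5) became 0 at a −log10 q of at least 5, with lists of equal length and with all 6 libraries, was -0.167 with windows of 2500 bp, and ranged from -1 to 0 with each library left out. Counts of regions and members specific to high glucose were 0 under every setting tried. Those specific to normal glucose ranged from 0 to 2 regions and from 0 to 1 members with each library left out, and were 0 otherwise. With the replicate block, pairing numbers 1 and 3, the differences were -1.5 peaks, 0.101 per 10000 and -0.5 members over 2 pairs (exact sign permutation test, p = 1 for each, smallest possible p 0.5), and the labels do not say that the numbers mark shared cultures. With 1 normal-glucose library left no test was made. Depth is unknown, and 3 to 7 peaks per library limit every comparison at this locus.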
